A study of Mus musculus with 105 samples.

Results

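Input small-RNA libraries of mouse embryonic stem cells (ESC, the v6.5 line) were compared late and early in a labelling experiment with 5-ethynyluridine (5EU), a uridine analogue that cells build into newly made RNA. Input libraries were made from small RNA before any pulldown of labelled RNA. Each therefore reports the level of each microRNA (miRNA) after the stated time with the analogue, which for the 0 h library is no time. The late group comprised the libraries taken after 16 and 24 h with 5EU, and the early group those taken after 0, 1, 2 and 4 h. Both groups came from 2 time courses, with 4 late libraries and 7 early ones, because the 0 h library belongs to course 1. These 11 libraries are part of a series of 105 samples, and every one of the 1013 mouse miRNA rows in their count tables was considered.

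Per the labels, late and early cells carried the same C57BL/6 strain label, were grown in medium with LIF, the inhibitors PD0325901 and CHIR99021 and the supplements B27 and N2, and received 125 µM 5EU. No late library without 5EU was analysed here, so time in culture and time with the analogue cannot be told apart. The labels do not state that the 2 courses were separate cultures or that a course was sampled from 1 culture, so p-values measure only the spread between these libraries. The fibroblasts used for comparison were DMEF, which divide, and CIMEF, which are contact-inhibited, both given 400 µM 5EU.

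MiRNAs are cut from hairpin precursors, and each hairpin can yield a 5p and a 3p arm. The seed, bases 2 to 8 of the mature miRNA, sets most of its target choice, so miRNAs that share a seed form a family. The miR-290-295 and miR-302 clusters are typical of pluripotent mouse cells. The miR-34 family, made from the Mir34a hairpin and from the paired Mir34b and Mir34c hairpins, is a direct transcriptional target of p53 and represses genes of the cell cycle and cell survival. The miR-200 family is known for repressing Zeb1 and Zeb2 and so for maintaining epithelial character.

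The 2 families with the most miRNAs called by the edgeR test described below are shown by their seeds, in capitals, from the RefSeq table of GRCm38.p6. Mir34a lies at chr4:150068454-150068555 on the plus strand, and Mir34c (chr9:51103034-51103110) and Mir34b (chr9:51103562-51103645) lie side by side on the minus strand. These 5p arms of the miR-34 family share 1 seed, and miR-449a-5p carries it too:
miR-34a-5p: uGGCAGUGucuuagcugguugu
miR-34b-5p: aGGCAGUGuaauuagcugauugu
miR-449a-5p: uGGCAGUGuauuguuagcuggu
The 3p arms of miR-34b and miR-34c share another seed and differ at 5 positions when aligned at their first base:
miR-34b-3p: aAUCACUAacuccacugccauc
miR-34c-3p: aAUCACUAaccacacagccagg
The miR-200 family comes from 2 clusters on the minus strand, Mir429 (chr4:156053905-156053987), Mir200a (chr4:156054896-156054985) and Mir200b (chr4:156055681-156055750) on chromosome 4, and Mir141 (chr6:124717914-124717985) and Mir200c (chr6:124718322-124718390) on chromosome 6. Its 3p arms fall into 2 seed groups that cut across the clusters:
miR-200b-3p: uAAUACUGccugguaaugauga
miR-429-3p: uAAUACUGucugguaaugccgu
miR-200c-3p: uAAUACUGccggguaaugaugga
miR-200a-3p: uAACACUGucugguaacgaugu
miR-141-3p: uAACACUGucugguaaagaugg
MiR-200a-3p and miR-141-3p differ at 2 positions outside the seed, as do miR-200b-3p and miR-200c-3p. How reads with mismatches were assigned between such pairs is not given in the sources used here, so their split is uncertain.

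The 11 libraries held 1897051 to 3983530 miRNA counts. The miR-290-295 and miR-302 clusters together made up 498100 to 557900 CPM (counts relative to the library total as scaled by edgeR, times 1e+06) in late libraries and 518500 to 591600 in early ones. The miR-302 cluster, counted with miR-367, held only 4651 to 10280 CPM late and 5184 to 10800 early. The miR-290-295 cluster had a mean of 502300 CPM late and 561800 early in course 1, and 529300 and 532000 in course 2. Of the markers listed for other cell types, 43 could be tested (15 fibroblast, 13 neural, 2 muscle, 7 blood, 3 endothelium or liver and 3 endoderm miRNAs). The edgeR test used below called 1 of the 43, the neural miR-137-3p described further on. At an unadjusted p under 0.05 there were 4, and DESeq2 called 0. Over all 558 miRNAs tested, the edgeR test called 20 (3.58%), and 95 had an unadjusted p under 0.05. The summed levels of each list overlapped between late and early libraries when courses were pooled. The courses differed in level, so this overlap does not show that a list was unchanged within a course. Muscle markers had a mean of 553.8 CPM late and 559.8 early in course 1, and 447.9 and 516.5 in course 2. Blood markers had 21030 late and 19830 early in course 1, and 14440 and 13780 in course 2. Fibroblast markers summed to 4012 to 4718 CPM late and 4014 to 4694 early. Some rows of these lists had no count in any of the 11 libraries, among them 5 of 15 muscle rows and 2 of 9 endoderm rows. The 24 h library of course 1 stood apart in a size marker added during preparation, with 2602 counts of the 18 nt marker against 61751 to 255379 in the other 10 libraries.

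Late libraries differed from early ones in few miRNAs, and almost all of those were higher. Of the 1013 rows, 160 had no count and 295 more were too low to test, and the 558 tested rows held 99.975% of the miRNA counts. Of these 558, 20 passed an adjusted p of 0.05 (3.58%), with 19 higher late (3.41%) and 1 lower (0.179%), by edgeR's quasi-likelihood test with the course as a term and Benjamini-Hochberg adjustment. At an unadjusted p under 0.05 there were 95, and with the course left out of the model 8 passed. The median change over the 558 was a log2 of -0.0017, and the median size without regard to sign was 0.125. Only 6 miRNAs changed by more than 2-fold, and all 6 were among the 20. Members of the miR-34 and miR-200 families accounted for 11 of the 20.

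**Figure D1:**
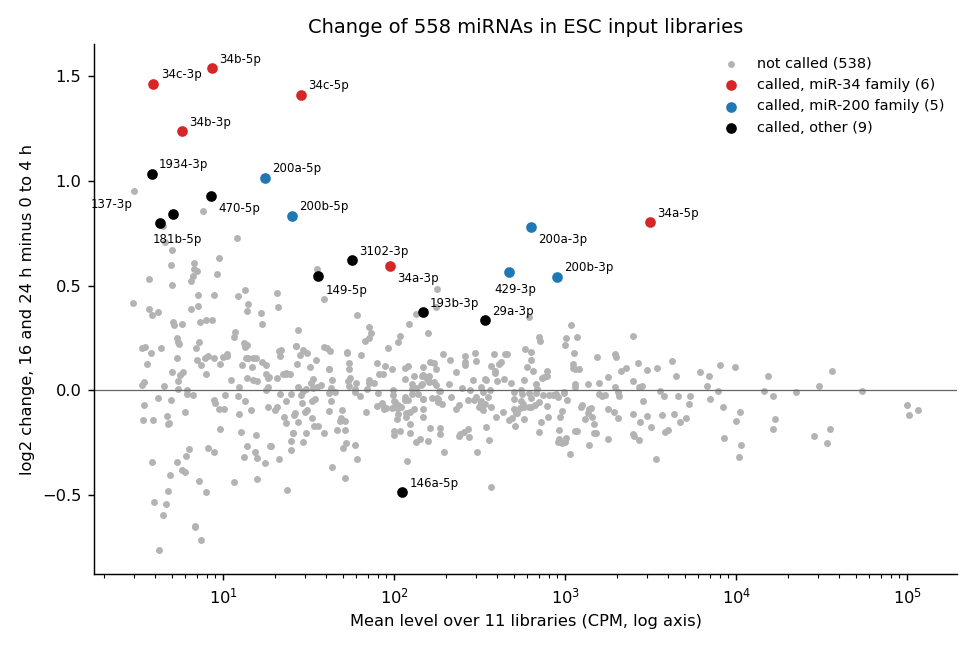
Change of each of the 558 tested miRNAs (vertical axis, log2 of 16 and 24 h minus 0 to 4 h) against its mean level over 11 libraries (horizontal axis, CPM, log scale). Coloured and labelled points are the 20 that passed the test; 19 lie above 0 and miR-146a-5p, at 111 CPM, lies below, while the most abundant miRNAs lie close to 0.

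The miR-34 family rose in late libraries. Of its 7 tested members, 6 passed the test, all higher and all with every late library above every early one of the same course; the median log2 change of the list was 1.24. Over all 558 miRNAs the same separation upward was seen in 30 (5.38%) and downward in 20 (3.58%). The summed family reached 3239 to 6325 CPM late, against 2079 to 3073 CPM early, and miR-34a-5p, the most abundant member, made up most of it. In bulk RNA, more cells that make a miRNA and more of it per cell cannot be told apart.

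MiR-34a-5p, the arm through which Mir34a acts on cell cycle genes, had 3087 and 4580 CPM at 16 and 24 h of course 1 and 3592 and 6092 CPM at the same times of course 2. The early libraries had 1982 to 2946 CPM, with a median of 2452. Every late library was above every early one, and the 24 h libraries were the highest of their courses. The change was 1.74-fold, a log2 of 0.80 ± 0.13 (SE; adjusted p = 0.0020). Its other arm, miR-34a-3p, reached 94.8 and 133.6 CPM in late libraries of course 1 and 129.1 and 122.4 CPM in those of course 2, against 52.5 to 117.6 CPM early, a log2 of 0.60 ± 0.15 (adjusted p = 0.039).

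MiR-34c-5p was scarce early and rose as well. Through course 1 it measured 16.0, 16.3, 12.9, 16.6, 14.6, 27.5 and 63.9 CPM at 0, 1, 2, 4, 8, 16 and 24 h. Through course 2 it measured 16.6, 22.3, 24.5, 39.7, 39.4 and 59.3 CPM at 1, 2, 4, 8, 16 and 24 h. In course 1 the level stayed near its starting value through 8 h, and in course 2 the 8 h library already lay above all earlier ones. The late libraries were 2.66-fold higher than the early ones, a log2 of 1.41 ± 0.20 (adjusted p = 0.0020).

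The other arms from the Mir34b and Mir34c hairpins moved the same way at very low counts. MiR-34b-5p, with 12 and 67 counts in the late libraries of course 1 and 43 and 79 in those of course 2, stood at 5.90, 16.6, 15.1 and 21.7 CPM there, against 2.81 to 7.22 CPM early. Within each course the late values were above the early ones, although the 16 h value of course 1 was below some early values of course 2. Its log2 change was 1.54 ± 0.24 (adjusted p = 0.0020). MiR-34c-3p changed by a log2 of 1.46 ± 0.22 (adjusted p = 0.0020), with 13 to 29 counts in each late library and 4 to 12 in each early one. MiR-34b-3p, named after its values were seen, changed by a log2 of 1.24 ± 0.28 (adjusted p = 0.020). In course 1 it had 15 counts at 16 h (7.37 CPM) and 15 at 4 h (6.92 CPM), so these 2 libraries separated only by scaling. Per 1000 counts of the added standards, it had 0.1803 at 16 h and 0.1804 at 4 h. Without the 24 h library of course 2 its adjusted p was 0.099, without the 1 h library of that course 0.056, and without the 2 h library of course 1 0.052. MiR-449a-5p carries the seed of miR-34a-5p and miR-34b-5p but comes from another hairpin on chromosome 13. It had 3.93, 7.19, 4.92 and 6.59 CPM late against 2.36 to 7.84 CPM early and did not pass (log2 0.22 ± 0.26, adjusted p = 0.75).

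**Figure D2:**
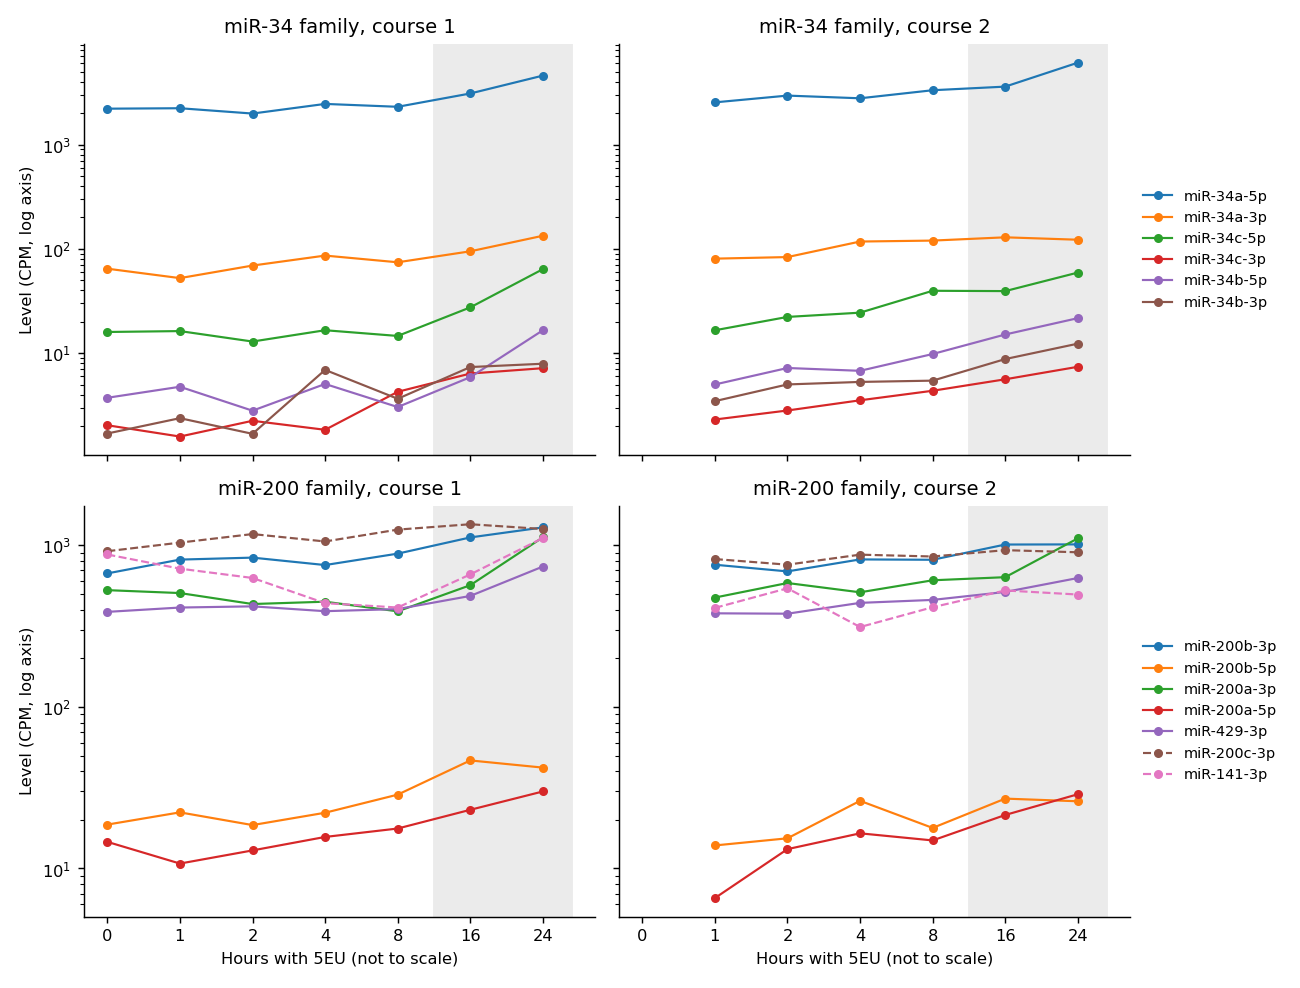
Levels (CPM, log axis) of miR-34 arms (top) and miR-200 family arms (bottom) in every input library of course 1 (left) and course 2 (right), by hours with 5EU; the shaded times are the late ones, and 8 h entered no group. The 6 miR-34 arms lie higher in the shaded region in both courses, and the dashed lines mark miR-200c-3p and miR-141-3p of the chromosome 6 cluster, which did not pass the test.

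Of the other miRNAs known to respond to p53, listed here as 11 rows of which 6 could be tested, 0 passed edgeR's test, 0 had an unadjusted p under 0.05 and DESeq2 called 0; their median log2 change was 0.0012, with 3 above 0 and 3 below. The list holds miR-145a-5p, a repressor of pluripotency factors, with a log2 change of 0.14 ± 0.088 (adjusted p = 0.44). It also holds miR-192-5p, at -0.071 ± 0.096 (adjusted p = 0.79), and miR-194-5p, at -0.032 ± 0.075 (adjusted p = 0.89). Over all 558 miRNAs, 20 passed edgeR's test and 95 had an unadjusted p under 0.05. The lists were not compared by a test.

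The miR-200 family was also higher late. All 9 tested members had log2 changes above 0, from 0.25 to 1.01 with a median of 0.63, and 5 passed the test. Of all 558 miRNAs, 276 had changes above 0. The family summed to 3696 to 5648 CPM late and 2886 to 3557 CPM early. All 5 tested arms of the chromosome 4 cluster passed and 0 of the 4 arms of the chromosome 6 cluster did (3 at an unadjusted p under 0.05, and DESeq2 called miR-200c-3p and miR-141-5p higher); the difference between the clusters was not tested.

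MiR-200b-3p had 1121 and 1293 CPM at 16 and 24 h of course 1 and 1013 and 1015 CPM in course 2, against 671 to 841 CPM in early libraries (median 760). The groups did not overlap, and both late times were alike in course 2. The change was 1.46-fold (log2 0.54 ± 0.087, adjusted p = 0.0020). MiR-200a-3p followed another course, with 567 CPM at 16 h and 1123 CPM at 24 h of course 1 and 636 and 1106 CPM in course 2, against 434 to 585 CPM early. Its 16 h values lay at the edge of the early range and its 24 h values far above it. The overall change was a log2 of 0.78 ± 0.16 (adjusted p = 0.015). Without the 24 h library of course 2 its adjusted p was 0.097, and without the 2 h library of course 1 it was 0.052.

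MiR-429-3p, which shares its seed with miR-200b-3p, had 487 and 740 CPM in late libraries of course 1 and 515 and 629 CPM in those of course 2, against 378 to 441 CPM early (log2 0.57 ± 0.10, adjusted p = 0.0071). The 5p arms of Mir200a and Mir200b were also higher: miR-200a-5p was 2.02-fold higher (log2 1.01 ± 0.19, adjusted p = 0.0085) and miR-200b-5p changed by a log2 of 0.83 ± 0.17 (adjusted p = 0.015). On the chromosome 6 cluster, miR-200c-3p had 1353 and 1264 CPM late and 921 to 1176 CPM early in course 1, and 935 and 907 CPM late and 760 to 877 CPM early in course 2. These values separated in each course, but the change was small (log2 0.25 ± 0.081) and did not pass (adjusted p = 0.096). MiR-141-3p varied among early libraries of course 1 from 439 to 879 CPM, which overlapped its late 662 and 1112 CPM, and did not pass (log2 0.35 ± 0.18, adjusted p = 0.33).

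Both arms of a hairpin are made from the same precursor, so paired arms give a second reading of each locus. Of 181 hairpins with both arms tested, 5 had both arms called, and these were miR-34a, miR-34b, miR-34c, miR-200a and miR-200b. A further 2 had 1 arm called, miR-29a and miR-1934. Across the 181 pairs, the changes of the 2 arms had a Spearman rho of 0.51, and 0.42 over the 144 pairs with both arms at 10 CPM or more; the arms share their libraries, and hairpins are not independent replicates.

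The other 8 miRNAs that rose came from separate loci. MiR-29a-3p, known for repressing collagens and DNA methyltransferases, had 401 and 487 CPM late and 336 to 351 CPM early in course 1, and 339 and 318 CPM late and 257 to 278 CPM early in course 2. The courses overlapped with each other but not within themselves, and the change was a log2 of 0.33 ± 0.075 (adjusted p = 0.020). Leaving out the 0 h or 2 h library of course 1 or the 2 h library of course 2 gave adjusted p of 0.060, 0.068 and 0.053. MiR-3102-3p, the 1 called of 6 tested mirtrons and capped miRNAs, which skip the usual first cut of the hairpin, had 99.7 and 65.9 CPM late in course 1 and 59.4 and 64.5 CPM in course 2, against 41.7 to 60.8 CPM early (log2 0.62 ± 0.13, adjusted p = 0.015). MiR-193b-3p changed by a log2 of 0.37 ± 0.090 (adjusted p = 0.034) and miR-149-5p by 0.54 ± 0.14 (adjusted p = 0.040), and both had their late libraries above the early ones in each course. For miR-149-5p in course 2 this was barely so, with 38.68 CPM at 16 h against 38.58 CPM at 1 h.

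MiR-470-5p, which belongs to an X-linked cluster and has been reported in mouse stem cells to target the Nanog and Oct4 messages, had 6.39 and 8.18 CPM late in course 1 and 13.7 and 21.4 CPM in course 2, against 4.15 to 8.79 CPM early. Its late values overlapped the early ones when courses were pooled and separated within each course (log2 0.93 ± 0.21, adjusted p = 0.020). Without the 24 h, 4 h or 1 h library of course 2 its adjusted p was 0.11, 0.059 and 0.056. All 14 tested members of that cluster had changes above 0, with a median log2 of 0.36, but miR-470-5p was the 1 that passed. With courses pooled the summed cluster overlapped, at 93.8 to 214.6 CPM late and 73.4 to 167.4 CPM early. Its mean was 106.4 CPM late and 83.7 early in course 1, and 206.7 and 159.5 in course 2. MiR-137-3p, enriched in neurons, passed on 18 to 31 counts in each late library (log2 0.84 ± 0.21, adjusted p = 0.040). It was the 1 of 13 tested neural markers to do so, and 2 of the 18 neural rows had no count. With courses pooled, the neural list summed to 5448 to 7160 CPM late and 5234 to 7583 CPM early. MiR-1934-3p (log2 1.03 ± 0.26, adjusted p = 0.040) and miR-181b-5p (log2 0.80 ± 0.21, adjusted p = 0.0498), both near 4 CPM, were named after their values were seen.

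MiR-146a-5p was the 1 miRNA that edgeR called lower over both courses and both late times. It is induced by NF-kB and dampens inflammatory signalling through Traf6 and Irak1, and it shares its seed with miR-146b-5p from chromosome 19:
miR-146a-5p: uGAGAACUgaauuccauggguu
miR-146b-5p: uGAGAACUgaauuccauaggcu
In course 1 it measured 168, 170, 168, 164, 121, 119 and 113 CPM at 0, 1, 2, 4, 8, 16 and 24 h, and in course 2 it measured 61.0, 73.8, 79.3, 73.2, 58.4 and 48.3 CPM at 1, 2, 4, 8, 16 and 24 h. The level differed between courses more than between times, and within each course both late libraries were below all early ones. The change was a log2 of -0.49 ± 0.096 (adjusted p = 0.010), and without the 24 h library of course 2 the adjusted p was 0.053. With the course left out of the model it was 0.67. MiR-146b-5p had a log2 change of 0.031 and did not pass.

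Below miR-146a-5p, the lower miRNAs with the smallest p did not pass. MiR-369-3p had 2756 and 3906 CPM late against 3949 to 4334 CPM early in course 1, and 2359 and 2528 CPM against 2991 to 3132 CPM in course 2 (log2 -0.33 ± 0.087, adjusted p = 0.0502). MiR-20a-3p of the miR-17-92 cluster had a log2 of -0.29 (adjusted p = 0.055), miR-467d-5p -0.46 (adjusted p = 0.055) and miR-135b-3p -0.37 (adjusted p = 0.064). DESeq2 called all 4, and by that tool the calls numbered 41, with 24 higher and 17 lower, so the split by direction depends on the tool.

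No member of the stem cell clusters passed edgeR's test over both late times together. At 16 h alone miR-293-5p of the miR-290-295 cluster passed, lower by a log2 of -0.49 (adjusted p = 0.031). In the miR-290-295 cluster, which speeds the cell cycle of stem cells, 12 of 14 tested members had changes below 0, the median log2 was -0.091 and 1 member had an unadjusted p under 0.05, and DESeq2 called 1 lower. MiR-294-3p, at a mean of 115900 CPM, had a log2 change of -0.091 ± 0.078 (adjusted p = 0.61), and miR-291a-3p, at 102600 CPM, one of -0.12 ± 0.079 (adjusted p = 0.50). In the miR-302 cluster 8 of 9 were below 0, with a median of -0.051, and in the proliferative miR-17-92 cluster 10 of 14, with a median of -0.16; 0 passed in either. At an unadjusted p under 0.05 there were 0 in the miR-302 cluster and 3 in the miR-17-92 cluster, all lower, and DESeq2 called 0 and 2. Over all 558 miRNAs, 95 had an unadjusted p under 0.05 in either direction. The let-7 family, which marks differentiation, had 9 of 10 members above 0, with a median of 0.078 and 0 past the test. Its lowest p, and the 1 below 0.05 unadjusted, belonged to let-7c-5p (log2 0.58 ± 0.17, adjusted p = 0.069), and DESeq2 called 1 member higher.

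Among larger groups, the imprinted Dlk1-Dio3 cluster on chromosome 12 had 70 of 99 tested members below 0 (median -0.089) and the repeat-derived miR-297, miR-466, miR-467 and miR-669 group had 33 of 42 (median -0.13), beside 282 of 558 over all miRNAs. In both, 0 passed edgeR's test over both late times together, although some members passed at 1 late time, as given further on. At an unadjusted p under 0.05 there were 12 and 10, all lower, beside 95 of all 558 miRNAs in either direction. DESeq2 called 5 and 6, all lower. The miR-29 and miR-30 families together had 1 of 16 called. The miR-15/16 family (11 tested), the miR-183-96-182 cluster (7), the miR-322 and miR-503 cluster (12), miR-23-27-24 with miR-21 (13), the clusters of miR-106b and miR-106a (14), the miR-130, miR-301, miR-148 and miR-152 families (13) and the miR-221 and miR-222 pair (2) had 0 called, with medians between -0.026 and 0.054; of these 72 miRNAs 4 had an unadjusted p under 0.05, and DESeq2 called 0.

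**Figure D3:**
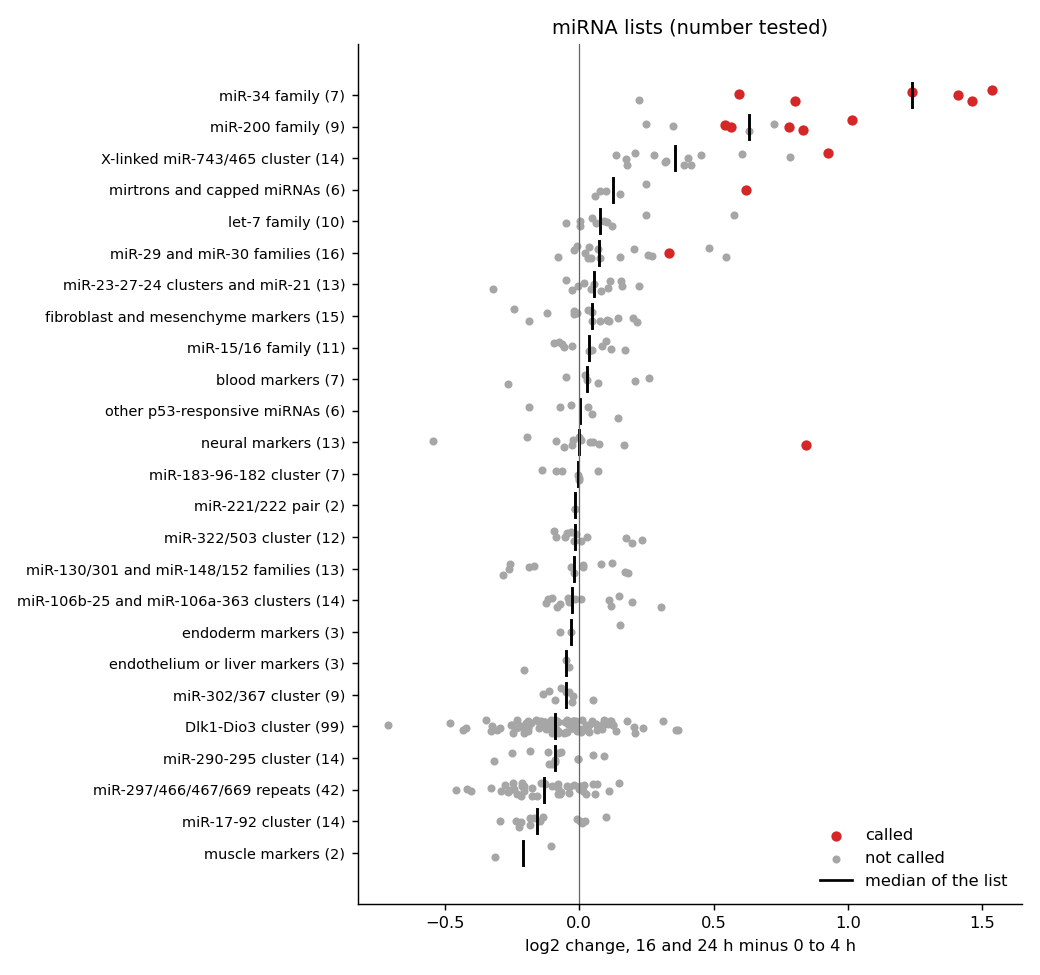
Log2 change (16 and 24 h minus 0 to 4 h) of the tested members of each list, with the number tested in brackets; red points passed the test and black bars are medians. The miR-34 and miR-200 families lie highest, with medians of 1.24 and 0.63.

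The courses were also fitted apart. Course 1 alone gave 5 calls of 558 (0.896%), all higher, and these were miR-34c-5p, miR-34c-3p, miR-34a-5p, miR-200b-3p and miR-200b-5p. Course 2 alone gave 0 calls (0%) by edgeR's quasi-likelihood test, with 93 at an unadjusted p under 0.05 and a lowest adjusted p of 0.097. All 20 miRNAs called over both courses had the same sign in each, as did 347 of the 558 tested, and the 20 were chosen by the fit over both courses, which favours a shared sign. MiR-34a-5p changed by a log2 of 0.81 in course 1 and 0.82 in course 2, and miR-34c-5p by 1.61 and 1.23. A direct test of the difference between courses called 0 of 558 (0%), with 13 at an unadjusted p under 0.05, and DESeq2 also called 0. Across the 558 miRNAs, which are not independent replicates, the changes of the 2 courses had a Pearson r of 0.47 and a Spearman rho of 0.36.

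**Figure D4:**
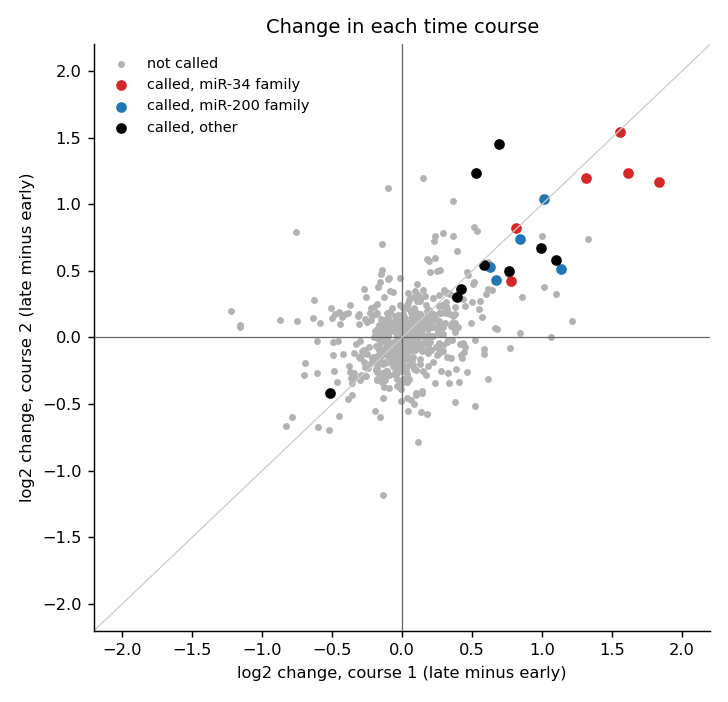
Log2 change (late minus early) of the 558 tested miRNAs in course 1 (horizontal) against course 2 (vertical), with the diagonal in grey. The 20 called miRNAs lie in the upper right or, for miR-146a-5p, the lower left, and of these 20 the miR-34b and miR-34c arms have the largest changes in course 1.

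The number of calls depended on single libraries. Without the 24 h library of course 1, which stood apart in the size marker, 52 miRNAs passed, 34 higher and 18 lower, and 17 of the 20 were among them. Without the 24 h library of course 2 it was 10, without the 2 h library of course 1 11, and without the 1 h library of course 2 12, each time all from the 20. MiR-34c-5p, miR-34c-3p, miR-34b-5p, miR-34a-5p, miR-200b-3p, miR-429-3p, miR-200a-5p, miR-200b-5p and miR-3102-3p passed whichever of the 11 libraries was left out. MiR-193b-3p passed in 5 of the 11, miR-34a-3p in 4, miR-149-5p in 3, miR-1934-3p in 2, miR-181b-5p in 1 and miR-137-3p in 0.

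The 16 h and 24 h libraries were also set against the early ones apart, in 1 fit whose comparisons share the early libraries. At 24 h 21 of 558 passed (3.76%), 14 higher and 7 lower, and at 16 h 7 passed (1.25%), 5 higher and 2 lower. MiR-34c-5p was higher by a log2 of 1.77 ± 0.16 at 24 h (adjusted p = 5.5e-06) and 0.87 ± 0.19 at 16 h (adjusted p = 0.036). MiR-34a-5p was higher by 1.10 ± 0.087 at 24 h (adjusted p = 3.0e-06) and 0.43 ± 0.090 at 16 h (adjusted p = 0.036). For miR-200a-3p the values were 1.15 ± 0.097 (adjusted p = 3.1e-06) and 0.26 ± 0.10 (adjusted p = 0.17), and for miR-200b-3p 0.59 ± 0.10 (adjusted p = 0.0041) and 0.49 ± 0.10 (adjusted p = 0.036). The 24 h level was thus the higher one for miR-34a-5p, miR-34c-5p and miR-200a-3p in both courses, and the 2 late times were not tested against each other.

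Some miRNAs passed at 1 of the late times and not at the other, a difference that was not tested, and those not described above were named after their values were seen. At 16 h these were miR-3102-3p (log2 0.75, adjusted p = 0.036), miR-455-3p.1 (log2 0.79, adjusted p = 0.037), miR-369-3p (-0.49, adjusted p = 0.031) and miR-293-5p (-0.49, adjusted p = 0.031). At 24 h the lower ones besides miR-146a-5p were miR-467d-5p (-0.67, adjusted p = 0.011), miR-129-3p (-0.54), miR-466bcp-3p (-0.44), miR-466ade-3p (-0.36), miR-378ac-3p (-0.35) and miR-411-5p (-0.33), with adjusted p between 0.030 and 0.049 for the last 5. The higher ones at 24 h that were not among the 20 were miR-30a-5p (0.49, adjusted p = 0.0077) and miR-141-5p of the chromosome 6 cluster (0.95, adjusted p = 0.030).
Each of these counts rests on few libraries. At 24 h it was 32 without the 24 h library of course 2, 12 without the 2 h library of course 1, and 13 without the 1 h library of either course or the 2 h library of course 2. At 16 h it was 23 without the 24 h library of course 2, 21 without that of course 1, 4 without the 2 h library of course 1, and 0 (101 to 113 at an unadjusted p under 0.05, or 28 where the 16 h library of course 1 was the one left out) without the 0, 1, 4 or 16 h library of course 1 or the 1 or 2 h library of course 2.

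The standards give a second scale. Per the labels, 2 synthetic RNAs were added per amount of total RNA, so the ratio of miRNA counts to their counts follows miRNA per total RNA. That ratio was 23.9 to 39.0 late and 27.9 to 38.2 early in course 1, and 46.3 to 51.4 late and 50.02 to 53.7 early in course 2, and it overlapped in both. Counted per 1000 standard counts, miR-34a-5p had 75.6 and 180.7 late and 57.4 to 84.4 early in course 1, and 178.9 and 321.8 late and 138.2 to 156.9 early in course 2. On this scale the 16 h library of course 1 fell within the early range, and the other 3 late libraries were above the early ones of their course. With the standards in place of the miRNA total, miR-34b-5p, miR-34c-5p and miR-34c-3p passed (3 of 558, all higher), at log2 changes of 1.57, 1.46 and 1.48. MiR-34a-5p kept a log2 of 0.84 and miR-200b-3p 0.56, but neither passed.

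In fibroblasts the miR-34 family was abundant and, with courses pooled, overlapped between 24 h and early libraries. MiR-34c-5p had 4085 and 2994 CPM in 24 h DMEF libraries against 3637 to 4186 CPM in 7 early ones, and 5667 and 1934 CPM in 24 h CIMEF libraries against 1992 to 6693 CPM early. MiR-34a-5p had 5863 and 8073 CPM at 24 h in DMEF against 4739 to 8718 CPM early, and 7810 and 8053 CPM in CIMEF against 7034 to 9738 CPM early. All these fibroblast groups overlapped, in ranges that pool 2 courses and not within each course as for ESC. For miR-34c-5p, 2994 CPM in DMEF and 1934 CPM in CIMEF lay below every early library. The other 24 h values lay within the early ranges. Levels were scaled within each line, so the comparison of levels between lines is approximate; at 24 h the 63.9 and 59.3 CPM of miR-34c-5p in ESC remained far below both fibroblast lines.

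The difference in drift at 24 h was tested in 1 fit of the 3 lines. Of 683 miRNAs, 13 differed between ESC and DMEF (1.9%; 10 with the higher change in ESC) and 12 between ESC and CIMEF (1.76%; 9 with the higher change in ESC), and 5 were in both. These 5 were, all with the higher change in ESC, miR-34a-5p, miR-34b-5p, miR-34b-3p, miR-34c-5p and miR-34c-3p. MiR-34c-5p had a log2 change of 1.82 ± 0.16 in ESC against -0.076 ± 0.13 in DMEF and -0.032 ± 0.13 in CIMEF. The differences were 1.90 ± 0.21 (adjusted p = 4.8e-08) and 1.85 ± 0.21 (adjusted p = 8.7e-08). MiR-34a-5p had 1.15 ± 0.11 in ESC against 0.14 ± 0.12 in DMEF and 0.094 ± 0.12 in CIMEF, with differences of 1.01 ± 0.17 (adjusted p = 0.00013) and 1.05 ± 0.17 (adjusted p = 8.5e-05). Against DMEF the others with a higher change in ESC were miR-1934-3p, miR-29b-3p, miR-190a-5p, miR-665-3p and miR-671-5p. Those with a lower one were miR-125b-5p, miR-92a-3p and miR-467d-5p. Of these, only miR-29b-3p, miR-671-5p and miR-467d-5p also passed for the change in ESC itself in this fit. The 5EU dose was lower in ESC than in either fibroblast line, and line and dose cannot be told apart. These counts too rest on the 24 h libraries: against DMEF the count was 5 without the ESC library of course 1, 24 without that of course 2, and 27 and 7 without the DMEF libraries of courses 1 and 2; against CIMEF it was 19 without either ESC library and 7 without the CIMEF library of course 1.

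**Figure D5:**
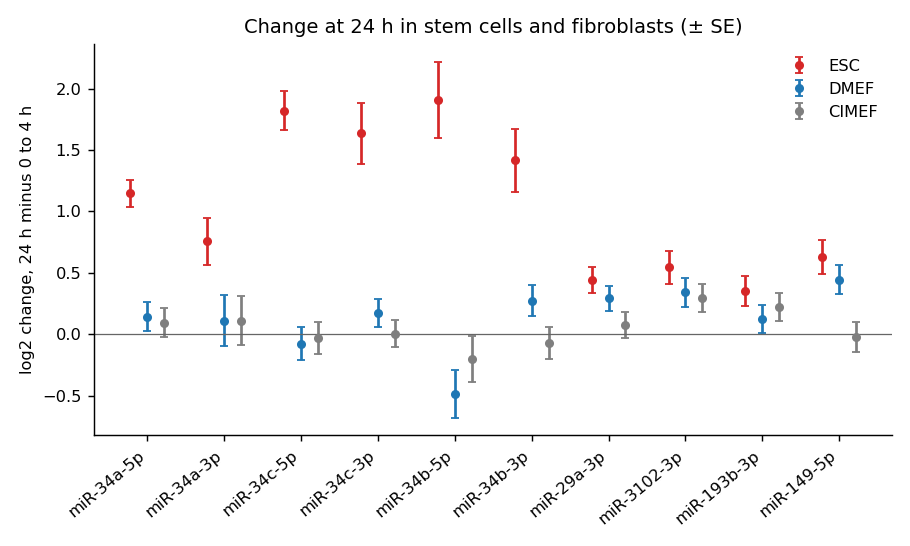
Log2 change at 24 h against 0 to 4 h (fitted value ± SE) in ESC, DMEF and CIMEF for the miR-34 arms and 4 other called miRNAs that fibroblasts also express. ESC points of miR-34a-5p, miR-34b and miR-34c lie well above both fibroblast lines, and those of miR-29a-3p, miR-3102-3p, miR-193b-3p and miR-149-5p lie near at least 1 of them.

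For the miR-200 family the same comparison says little, because the fibroblasts lack these miRNAs. MiR-200b-3p had 0 counts in DMEF and 3 counts at 24 h and 19 early in CIMEF. MiR-29a-3p, abundant in all 3 lines, had log2 changes of 0.44 ± 0.10 in ESC, 0.29 ± 0.10 in DMEF and 0.075 ± 0.10 in CIMEF, and the differences did not pass. MiR-3102-3p had log2 changes of 0.54 ± 0.13, 0.34 ± 0.12 and 0.30 ± 0.12 in the same order, again with no difference that passed. MiR-1934-3p differed between ESC and DMEF (log2 2.48, adjusted p = 0.041), on 5 counts at 24 h and 28 early in DMEF.

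5EU enters RNA at uridines, so base composition was set beside the change. A mature sequence was found for 448 of the 558 tested miRNAs and 19 of the 20 called. The 18 higher miRNAs with a sequence held 2 to 9 uridines with a median of 6.5, and all 448 held 0 to 12 with a median of 6. Across the 448, the Spearman rho between the change and the number of uridines was -0.041. It was 0.29 for the number of G and C bases (0.15 in course 1 and 0.36 in course 2) and -0.24 for the mean level; these points share their libraries, and the values are descriptions.

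The pulled-down fraction (EU libraries) offers another readout, although its ratio to input shares the early input libraries with the comparison. EU libraries at 1, 2 and 4 h held 7922 to 65650 miRNA counts, and 331 of the 558 miRNAs had at least 10 counts there. The mean log2 ratio of EU to input had a median of 0.10 over those 331. The 7 higher miRNAs with enough counts had a median of -0.026 and ranged from -0.37 to 3.58, on both sides of that value. MiR-34a-5p, with 590 EU counts, stood at 0.27, the 57.1 percentile of the 331, and miR-146a-5p, with 14, at 0.65. The rho between this ratio and the late minus early change was 0.081.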

How the data were processed

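Input small-RNA libraries of ESC at 0, 1, 2, 4, 16 and 24 h were compared within 2 courses, with DMEF and CIMEF input and ESC pulldown libraries beside them. All values are raw counts per mature miRNA that the authors deposited, with no normalization. Per the labels' protocols, adapters with 4 random bases were ligated and synthetic standards were added per amount of total RNA. Per the submitters' processing notes, course 1 used cutadapt, STAR 2.4 and HTSeq 0.9.1 on mm10/GRCm38, and course 2 names cutadapt only. Whether the random bases were used to collapse duplicates is not given in the sources used here, so counts were taken as reads.

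Rows of standards and size markers were left out of totals. Counts were fitted with edgeR 4.0.16 in R 4.3.3 (TMM scaling, its expression filter by phase, quasi-likelihood F test, course as a term), with Benjamini-Hochberg adjustment across all miRNAs tested and a threshold of 0.05. CPM are TMM-scaled over the 13 ESC input libraries, 8 h included. SE is the size of the log2 change over the square root of F. The course number was a replicate block in the model because the comparison lies within courses: the first principal component (47.9% of variance) put all libraries of course 1 between -7.89 and -3.99 and all of course 2 between 4.64 and 8.61. DESeq2 1.42.0 and other scalings, filters and left-out libraries were alternatives. The fit was tested on simulated data.

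MiRNAs were named by lowest p (up to 12 in each direction with a mean of at least 10 CPM and the same sign in both courses; where fewer than 5 were called, the 5 lowest p), by the other arm, by list (up to 4 each) and by highest level. The comparison and the 25 lists were chosen with earlier results of these data known. With 2 courses the precision is limited by the libraries, not by counts, for abundant miRNAs.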

Additional observations from a re-analysis of the deposited data

Results flagged for a closer look

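Some named miRNAs had a library far from the others of its group, measured as the gap to the nearest library over the whole range of log2 deviations from the early mean of the course. Chance flags about 1 in 20 groups, and 56 groups were looked at. MiR-34a-3p in late libraries had a ratio of 0.838, with the 24 h library of course 1 highest, and miR-20a-5p in late libraries 0.94, with the same library highest; that library also stood apart in the 18 nt marker, and the part of this in either value was not tested. MiR-34b-3p had 0.854 in late libraries, with the 16 h library of course 2 apart, and 0.5684 in early ones, with the 4 h library of course 1 (15 counts) apart. MiR-369-5p had 0.603 in early libraries, with the 1 h library of course 1 apart.

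The change at 24 h differed between stem cells and fibroblasts, tested as an interaction, for miR-34c-5p (log2 1.9 against DMEF and 1.85 against CIMEF), miR-34a-5p (1.01 and 1.05), miR-34c-3p (1.46 and 1.63), miR-34b-5p (2.4 and 2.11) and miR-34b-3p (1.14 and 1.49). Against DMEF and not against CIMEF the change was higher in ESC for miR-1934-3p (2.48), miR-29b-3p (0.994), miR-665-3p (0.828), miR-190a-5p (0.822) and miR-671-5p (0.687). It was lower for miR-467d-5p (-0.754), miR-125b-5p (-0.686) and miR-92a-3p (-0.618). Some of these moved little in ESC. MiR-665-3p changed by a log2 of 0.20 in ESC and -0.62 in DMEF, and miR-92a-3p by -0.065 and 0.55. Against CIMEF and not against DMEF the change was higher in ESC for miR-374c-3p (2.65), miR-182-3p (2.35), miR-27a-5p (1.22) and miR-503-5p (0.869). It was lower for miR-485-3p (-1.23), miR-376b-3p (-0.887) and miR-7a-5p (-0.806). Only miR-374c-3p also passed for the change in ESC itself (log2 1.97). The others had log2 changes in ESC and CIMEF of 0.071 and -2.28 (miR-182-3p), 0.15 and -1.07 (miR-27a-5p) and 0.15 and -0.72 (miR-503-5p). For miR-485-3p they were -0.17 and 1.06, for miR-376b-3p -0.17 and 0.72, and for miR-7a-5p 0.020 and 0.83.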

How the results depend on the processing

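The count of 20 became 8 with no replicate block (all 8 among the 20), 41 with DESeq2 (18 of the 20), 3 with the standards as scale and 13 with a mean of at least 10 CPM. Left out in turn, the libraries gave 10 to 52 and the courses 0 to 5. At 16 h, DESeq2 called 25 and the fit with no replicate block 0 (52 at an unadjusted p under 0.05), and left-out libraries gave 0 to 23; at 24 h these were 34, 8 and 12 to 32. ESC minus DMEF gave 23 calls with DESeq2 and 5 to 27 with 24 h libraries left out, and ESC minus CIMEF 21 without the 0 h libraries and 7 to 19 with 24 h libraries left out. The cause of these shifts was not tested, except that the 10 CPM filter tests fewer miRNAs. RLE scaling, library totals, no filter, 0 h left out, 8 h counted as early, a trend over time and a robust fit gave 15 to 30 for the main count. Of the miRNAs named by lowest p, their other tested arms and the rest of the 20, none reversed its direction in any alternative. MiR-34c-5p passed in 23 of 24. This was not so for all miRNAs named by list or level: miR-294-3p had a log2 of -0.19 in course 1 and 0.052 in course 2. Library totals shifted the median of all miRNAs to a log2 of 0.058. Members below about 10 CPM rest on few counts per library.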
